A study of Mus musculus with 2 samples.

Results

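The miR-99/100 and miR-125 families are taken here as 6 hairpin genes of the mouse genome. These are Mir99a, Mir99b and Mir100 on the one side and Mir125a, Mir125b-1 and Mir125b-2 on the other. They are 6 of the 2201 annotated miRNA hairpin genes against which the small RNAs of E16.5 (embryonic day 16.5) whole testes were matched, and 1230 of these genes had at least 1 read. A read was assigned to a member when its sequence of 16 nt or more lay exactly, on the sense strand, inside the annotated hairpin, and 208 distinct sequences met this rule, of which 179 occurred in the WT library and 178 in the Hsp90α KO library. The rule that assigns reads to members uses sequence alone and no read count.

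The WT library was made from 20 pooled testes of C57BL/6 fetuses obtained by natural mating, and the KO library from 20 pooled testes of fetuses of the same strain and age that lack Hsp90α, the cytosolic chaperone encoded by Hsp90aa1. The study asked how the loss of Hsp90α affects small RNAs of the fetal testis. Each genotype was sequenced once, so there are no replicates, every comparison is between 1 library and the other, and no p-value is given. The intervals are 95% counting intervals, which take each read as an independent molecule although the reads carry no molecular identifiers, and they do not cover the variation between animals or library preparations. Small RNA reads do not measure the Hsp90α transcript, so the genotype of the libraries was not checked here.

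The WT library held 6409305 reads and the KO library 5589326 reads. Of these, 2523084 and 2561491 reads matched a hairpin, and levels are given in RPM, the reads of a hairpin per 1000000 hairpin-matching reads. At this depth 3 reads correspond to 1.19 RPM in WT and 1.17 RPM in KO. All 6 listed germ cell hairpins of the miR-290 cluster and both gonadal support cell hairpins, Mir202 and Mir140, were detected in each library, so the marker hairpins of the labelled tissue were present. The summed level of the gonadal support list was 2805 RPM in WT and 2982 RPM in KO, a ratio of 1.06 (1.03 to 1.10). The germ cell list was at 795 and 1031 RPM, a ratio of 1.30 (1.22 to 1.38), and the list of 4 blood hairpins was at 757 and 615 RPM, a ratio of 0.812 (0.759 to 0.869). Mir126a of vessels stood at 5133 and 5147 RPM, and the lists of muscle (2 of 5 hairpins detected in WT and 4 in KO), neural (6 of 6 in both) and liver (Mir122, 16 reads and 1 read) hairpins were below 20 RPM in both libraries. Whether these differences in cell type markers have a part in the values of the 2 families was not tested, and in whole testes fewer cells of a type and less RNA per cell cannot be told apart.

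A miRNA is cut from its hairpin by Drosha and Dicer as a duplex of a 5p and a 3p arm, of which usually one is kept by an Argonaute protein. Bases 2 to 8 of the kept strand, the seed, pair with target mRNAs, so RNAs with the same seed are counted as one family and a shift of the 5′ end by a single base gives another seed. miR-99/100 and miR-125 miRNAs are encoded with a let-7 hairpin in clusters that have been copied in vertebrate evolution. miR-125b is the mammalian relative of lin-4, the first miRNA to be found, and the miR-99/100 family is known for targeting Mtor and Igf1r. In these libraries, 5p-arm RNAs made up nearly all member reads of both families, and their mature sequences, from RefSeq (GRCm38.p6), are given here 5′ to 3′ with the seed in capitals. They are shown because the seed separates the families, while the bases outside it decide which reads can be assigned to a single gene.

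miR-99a-5p: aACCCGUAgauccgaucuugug
miR-100-5p: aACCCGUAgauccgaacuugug
miR-99b-5p: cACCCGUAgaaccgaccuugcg
miR-125a-5p: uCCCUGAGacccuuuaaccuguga
miR-125b-5p: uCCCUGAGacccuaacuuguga

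All 6 members had an entry in RefSeq, with 11 distinct mature RNAs. With positions counted from 1 at the 5′ end, miR-99a-5p and miR-100-5p are separated by U16A alone, whereas miR-99b-5p differs from miR-99a-5p by A1C, U11A, U16C and U21C. miR-125b-5p is the same RNA from both Mir125b-1 and Mir125b-2, and its reads are reported as shared unless they reach into a base that differs between the hairpins. No read was shared between Mir99a and Mir100, between the families, or with a hairpin that is not a member.

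The hairpins lie in 3 clusters on the plus strand (GRCm38), each with a miR-99/100 hairpin first, a let-7 hairpin in the middle and a miR-125 hairpin last. On chromosome 17, Mir99b (chr17:17830188-17830257), Mirlet7e and Mir125a (chr17:17830812-17830879) lie within 692 bp in introns of Spaca6, a protein-coding gene named for sperm acrosome association, and Mir125a also overlaps an exon of 1 Spaca6 transcript. On chromosome 16, Mir99a (chr16:77598936-77599000), Mirlet7c-1 and Mir125b-2 (chr16:77646273-77646343) span 47408 bp in introns of the non-coding host gene Mir99ahg. On chromosome 9, Mir100 (chr9:41531425-41531504), Mirlet7a-2 and Mir125b-1 (chr9:41581926-41582002) span 50578 bp in introns of the non-coding RNA 3110039I08Rik. Mir125b-1 and Mir125b-2 also lie in exons of the same-strand transcripts Gm28119 and C130023A14Rik, and Mir100 overlaps an exon of Gm48742 on the opposite strand.

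Mir99b was the leading member in both libraries and accounted for most reads of the 2 families. It had 62188 reads in WT and 77472 in KO, or 24648 and 30245 RPM, which placed it at rank 5 of all hairpins in WT and rank 3 in KO when only reads specific to a single hairpin gene were ranked. Mir125a, 367 bp beyond the let-7 hairpin of the same cluster, followed with 22121 and 23924 reads, or 8767 and 9340 RPM, at rank 13 in both libraries. Thus the compact chromosome 17 cluster held the most abundant member of each family.

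The reads shared by Mir125b-1 and Mir125b-2 came next, with 7225 in WT and 8386 in KO, or 2864 and 3274 RPM. Mir99a had 4939 and 5384 reads, or 1958 and 2102 RPM, and Mir100 had 2278 and 2579 reads, or 903 and 1007 RPM. The order of the members was therefore the same in both libraries, and neighbouring levels in it differed by more than their counting error. Reads specific to Mir125b-2 were at 367 RPM in WT and 342 RPM in KO, and those specific to Mir125b-1 were at 259 and 267 RPM, but these are mostly 3p-arm reads and do not show which locus made the shared miR-125b-5p. All 6 members together took 3.98% of hairpin-matching reads in WT and 4.66% in KO.

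**Figure D1:**
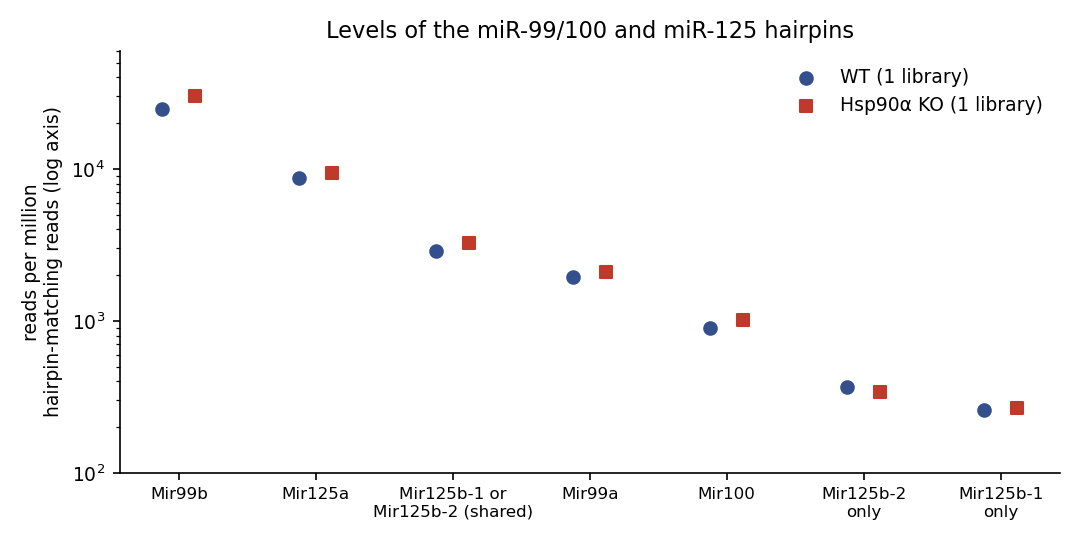
Levels of the member hairpins in the WT library (circles) and the Hsp90α KO library (squares), in RPM on a log axis; reads that fit Mir125b-1 and Mir125b-2 alike are drawn as 1 group. Mir99b is the highest in both libraries, at 24648 in WT and 30245 in KO, and the reads specific to Mir125b-1 are the lowest.

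Between the libraries, the miR-99/100 family was higher in KO. It had 69405 reads in WT and 85435 in KO, or 27508 and 33354 RPM, a KO/WT ratio of 1.21 (1.2 to 1.22). The miR-125 family had 30927 and 33870 reads, or 12258 and 13223 RPM, a ratio of 1.08 (1.06 to 1.10). The ratio of miR-99/100 reads to miR-125 reads, which does not depend on the normalization, was 2.24 in WT and 2.52 in KO, so that it was 1.12 times as high in KO (1.10 to 1.14).

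The higher level of the miR-99/100 family came mostly from Mir99b, whose ratio was 1.23 (1.21 to 1.24). Mir100 had a ratio of 1.12 (1.05 to 1.18) and Mir99a of 1.07 (1.03 to 1.12), and the intervals of these smaller members overlapped. Relative to Mir99a, Mir99b was 1.14 times as high in KO as in WT (1.10 to 1.19), and relative to Mir100 1.10 times (1.04 to 1.17). In the miR-125 family, Mir125a had a ratio of 1.07 (1.05 to 1.08) and the shared miR-125b reads of 1.14 (1.11 to 1.18). Reads specific to Mir125b-1 had a ratio of 1.03 (0.926 to 1.15) and those specific to Mir125b-2 of 0.930 (0.847 to 1.02), and both intervals include 1.

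These ratios were read against all hairpins with at least 100 specific reads in both libraries together. No hairpin of 205 was higher in KO past 1.5-fold (0%) and 4 were lower (1.95%), and none of the 6 members was past 1.5-fold in either direction. At 1.2-fold, 21 hairpins were higher in KO (10.2%) and 28 were lower (13.7%), and of the members only Mir99b was past 1.2-fold, in the higher direction. The median ratio over the 205 hairpins was 0.981, with the central 90% between 0.739 and 1.30, whereas the median of the 6 members was 1.07. A ratio above 1 was found for 5 of 6 members and for 92 of 205 hairpins (44.9%). There were 16 of 205 hairpins with a higher ratio than Mir99b, and 5 of 89 among those with at least 1000 specific reads, so the distance of Mir99b from 1 was large for a counting error but not outside the range of other hairpins in these 2 libraries. Counting error alone sets a narrow interval on an abundant RNA, and the spread between libraries of the same genotype is not known.

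**Figure D2:**
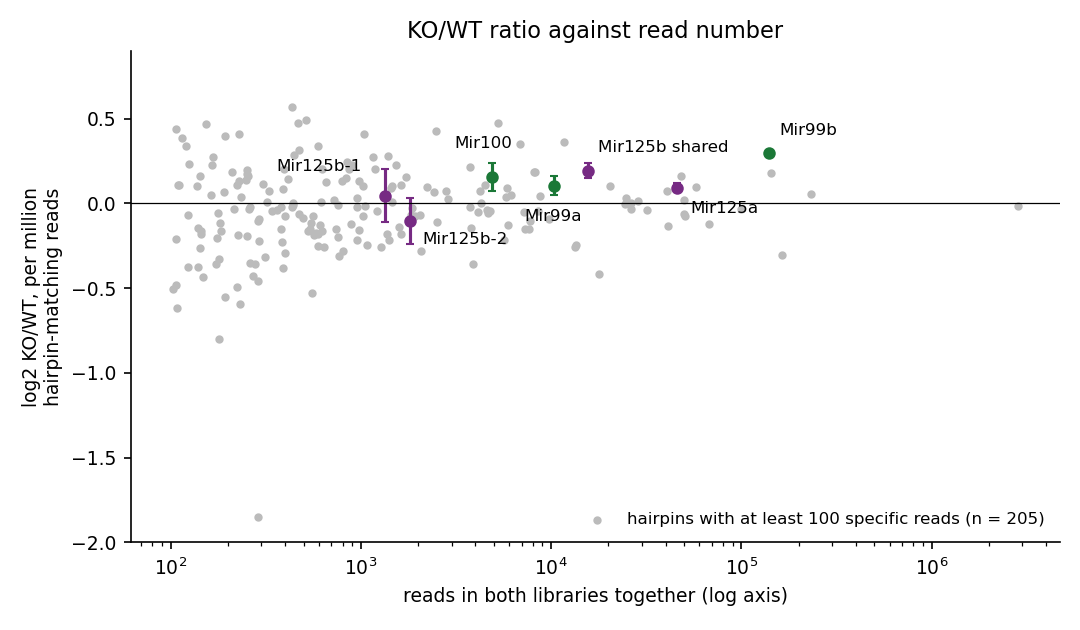
The log2 ratio of KO to WT levels (RPM) of each hairpin against its reads in both libraries together on a log axis; grey points are the 205 hairpins with at least 100 specific reads, green points the miR-99/100 members and purple points the miR-125 members, with 95% counting intervals. Mir99b, the most abundant member, lies at 0.30, above the other members. The point of the reads specific to Mir125b-2 is the lowest of the members, at -0.11. With the shared reads included, which is not drawn, Mir125b-2 was at 0.16.

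By the same measure, the hairpins of at least 1000 reads nearest in KO/WT ratio to the miR-99/100 family were Mir27a and Mir199b, both at 1.21, and Mir615 at 1.17. The nearest to the miR-125 family were Mir484, Mir93 and Gm25732, each at 1.08. This likeness is a match of a single ratio over 2 libraries.

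Relatives outside the families did not share the ratio of Mir99b. Mir351, a hairpin on the X chromosome whose 5p RNA has the miR-125 seed, had 25604 reads in WT and 24713 in KO, a ratio of 0.951 (0.934 to 0.968), and stood above Mir125a in both libraries. Among the relatives of miR-99/100, Mir10a had 66179 and 76010 reads, a ratio of 1.13 (1.12 to 1.14), and Mir10b, the most abundant hairpin of both libraries, had 1410287 and 1415066 reads, a ratio of 0.988 (0.986 to 0.991).

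Within the chromosome 17 cluster, the 3 neighbours had different KO/WT ratios. Mirlet7e, which lies between Mir99b and Mir125a, had 2072 specific reads in WT and 2032 in KO, a ratio of 0.966 (0.908 to 1.03). There were 30.01 Mir99b reads for each Mirlet7e read in WT and 38.1 in KO, which is 1.27 times as many (1.19 to 1.35). Mir99b also stood at 2.81 reads for each Mir125a read in WT and 3.24 in KO, 1.15 times as many (1.13 to 1.18), and Mirlet7e relative to Mir125a was at 0.907 times its WT value (0.851 to 0.967). The hairpins thus differed from each other by more than the counting error, also without any normalization, although they lie within 692 bp.

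In the other clusters the let-7 copies and the Mir125b loci share reads, so quotients were taken with the specific reads and with all matching reads. Mirlet7c-1 had 42 specific reads in WT and 33 in KO, and 5520 and 4797 reads when those shared with other let-7 hairpins were included. Mirlet7a-2 had 7 and 10 specific reads and 5092 and 4804 in all. With all matching reads, Mir99a relative to Mirlet7c-1 was 1.25 times as high in KO (1.19 to 1.32), and Mir100 relative to Mirlet7a-2 1.2 times (1.12 to 1.29). With the specific let-7 reads these quotients were 1.39 (0.878 to 2.19) and 0.792 (0.301 to 2.09), and both intervals include 1. The values with all matching reads lay near the 1.27 of Mir99b relative to Mirlet7e, but rest almost wholly on reads shared with other let-7 hairpins. Mir100 relative to the specific reads of Mir125b-1, its chromosome 9 neighbour, was 1.08 times as high in KO (0.958 to 1.22), and relative to all its matching reads 0.983 times (0.922 to 1.05). Mir99a relative to the specific reads of Mir125b-2 on chromosome 16 was 1.15 times as high (1.04 to 1.28), but relative to all matching reads of Mir125b-2 0.960 times (0.914 to 1.01). Both quotients thus lay above 1 with the specific reads, which were mostly 3p reads, and below 1 when the shared ones, mostly 5p reads, were included. Only the interval of Mir99a relative to the specific Mir125b-2 reads left out 1, so a change of direction is not shown beyond the counting error. The paralogues Mir99a and Mir100 kept a similar proportion, with 2.17 Mir99a reads for each Mir100 read in WT and 2.09 in KO, a quotient of 0.963 (0.899 to 1.03).

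The 5p arm supplied nearly all reads of 4 hairpins, and the miR-125b loci stood apart. The 3p share was 0.148% for Mir99b in WT and 0.0942% in KO, with 92 and 73 exactly matching reads of miR-99b-3p. It was 0.176% and 0.155% for Mir100, with 4 reads in each library. Mir125a had a 3p share of 0.429% and 0.380%, and Mir99a of 1.40% and 1.45%. For Mir125b-1 and Mir125b-2 together the 3p share was 16.1% (15.3 to 16.8) in WT and 13.8% (13.1 to 14.5) in KO, and these intervals did not overlap. The exact match leaves out reads with bases added at the 3′ end. When tailed reads were included, among reads of 18 nt or more that started at the annotated base, the 3p share of Mir99b was 0.291% (0.255 to 0.332) in WT and 0.235% (0.206 to 0.267) in KO, with 221 and 224 reads of miR-99b-3p, and that of the miR-125b loci was 20.3% (19.4 to 21.1) and 17.5% (16.7 to 18.2).

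The 3p RNAs of the miR-125b loci can be told apart, since they differ in and beyond the seed. They are shown, again from RefSeq, together with the form of miR-125b-2-3p that started 2 bases upstream, the most frequent of its reads with another start.

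miR-125b-1-3p: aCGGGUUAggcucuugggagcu
miR-125b-2-3p: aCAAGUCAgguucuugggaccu
miR-125b-2-3p, start 2 bases upstream: uCACAAGUcagguucuugggac

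miR-125b-2-3p had 876 reads in WT and 820 in KO, a ratio of 0.922 (0.837 to 1.02). miR-125b-1-3p had 538 and 552 reads, a ratio of 1.01 (0.896 to 1.14). miR-125b-5p had 7391 and 8572 reads, a ratio of 1.14 (1.11 to 1.18), so its quotient to miR-125b-2-3p was 1.24 times as high in KO (1.12 to 1.37) and that to miR-125b-1-3p 1.13 times (0.9998 to 1.28). In both libraries the 3p RNA of Mir125b-2 was the more frequent, with 0.614 reads of miR-125b-1-3p for each read of miR-125b-2-3p in WT and 0.673 in KO. This proportion was 1.10 times as high in KO, with an interval of 0.941 to 1.28 that includes 1. The 5p RNAs of the miR-125 family also differed in their ratio, with 2.98 reads of miR-125a-5p for each read of miR-125b-5p in WT and 2.78 in KO, a quotient of 0.933 (0.8999 to 0.967).

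The 5′ end, which sets the seed, was the annotated base in most 5p reads, with miR-125b-5p as the main exception. In miR-125b-5p, 1357 of 7391 reads in WT and 1517 of 8572 in KO started 1 base downstream, or 18.4% (17.5 to 19.3) and 17.7% (16.9 to 18.5). The most frequent of these reads is given here, since its bases 2 to 8 are not those of the miR-125 seed.

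miR-125b-5p, start 1 base downstream: cCCUGAGAcccuaacuuguga

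This form had 1176 reads in WT and 1317 in KO. Its share did not differ between the libraries beyond the counting error. miR-125a-5p begins with the same bases, the seed included, but only 81 of 22026 reads in WT and 124 of 23833 in KO started at that base, or 0.368% (0.296 to 0.457) and 0.520% (0.437 to 0.620). Both miR-125b hairpins had reads of the shifted start. Among 5p reads long enough to be specific to a locus, 64 of 116 Mir125b-1 reads in WT (55.2%, 46.1 to 63.9) and 53 of 133 in KO (39.8%, 31.9 to 48.3) started 1 base downstream. For Mir125b-2 these were 19 of 50 reads in WT (38%, 25.9 to 51.8) and 23 of 53 in KO (43.4%, 30.95 to 56.7), so the order of the loci was not the same in the libraries and the intervals overlapped. These shares are for reads that extend past the annotated 3′ end and are not those of all reads of a locus.

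Reads with other starts had different patterns in the other members. In miR-99a-5p, 11.6% of reads in WT and 11.4% in KO started 2 or more bases downstream, against 2.55% and 2.49% in miR-100-5p. In miR-99b-5p this share was 1.43% (1.34 to 1.53) in WT and 1.21% (1.14 to 1.29) in KO, intervals that did not overlap. The most frequent of these starts in miR-99a-5p was 4 bases downstream, with 332 of 4870 reads in WT and 336 of 5306 in KO. These were mainly reads of 17 nt (169 and 182) and 18 nt (142 and 129). In miR-125b-2-3p, 22.0% (19.4 to 24.9) and 22.1% (19.4 to 25.04) of reads started upstream of the annotated base, against 2.60% (1.56 to 4.32) and 1.09% (0.499 to 2.35) in miR-125b-1-3p. Each of these patterns of starts was found in both libraries.

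**Figure D3:**
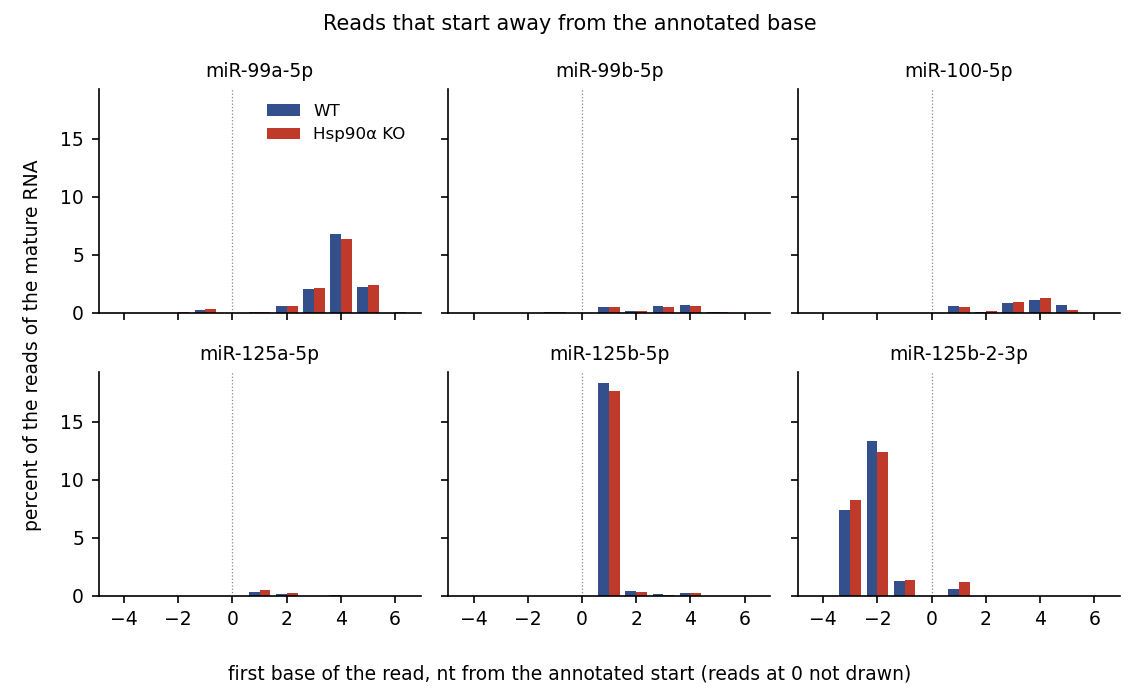
Percent of the reads of each mature RNA that start away from the annotated base, by distance in nt (negative is upstream), in WT (blue) and Hsp90α KO (red). miR-125b-5p stands out with 18.4% and 17.7% at 1 base downstream, miR-99a-5p has a group of starts around 4 bases downstream, and miR-125b-2-3p has its other starts upstream.

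The 3′ ends separated the members further. Among reads that started at the annotated base, miR-99b-5p was split between 21 nt, with 43.3% in WT and 43.6% in KO, and 22 nt, with 48.5% and 49.0%. miR-99a-5p was mostly of 22 nt, with 68.2% (66.8 to 69.6) and 64.8% (63.4 to 66.2), and had 16.6% (15.5 to 17.7) and 19.9% (18.7 to 21.0) at 21 nt. The share of 21 nt was thus higher in the KO library than in WT, beyond the counting error. miR-100-5p, which differs from it by U16A, had 59.0% at 22 nt in both libraries, and about equal parts of 21 nt (20.1% and 20.5%) and 20 nt (18.9% and 18.8%).

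miR-125a-5p had its most frequent length at 22 nt, with 40.7% in both libraries, although its annotated form is of 24 nt. The 24-nt form took 35.7% (35.1 to 36.3) in WT and 33.97% (33.4 to 34.6) in KO, and the 23-nt form 14.8% (14.3 to 15.3) and 16.1% (15.6 to 16.5). miR-125b-5p was mostly of 22 nt, with 69.2% and 68.2%, and its 21-nt form took 16.4% (15.4 to 17.3) in WT and 18.2% (17.3 to 19.1) in KO. The 21-nt form of miR-99a-5p was read more often in KO, with a KO/WT ratio of 1.29 (1.16 to 1.42). Its 22-nt form was at 1.02 (0.9701 to 1.07). For miR-125b-5p these ratios were 1.28 (1.18 to 1.39) and 1.14 (1.09 to 1.19). Their intervals overlapped slightly, as did those of its 21-nt shares. In miR-125a-5p the 21-nt form took 7.08% (6.75 to 7.43) in WT and 7.84% (7.50 to 8.19) in KO, intervals that did not overlap. Its 21-nt ratio was 1.18 (1.10 to 1.26), against 1.06 (1.03 to 1.095) at 22 nt. The 21-nt and 22-nt forms of miR-99b-5p did not differ in this way, with ratios of 1.24 (1.22 to 1.26) for each.

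**Figure D4:**
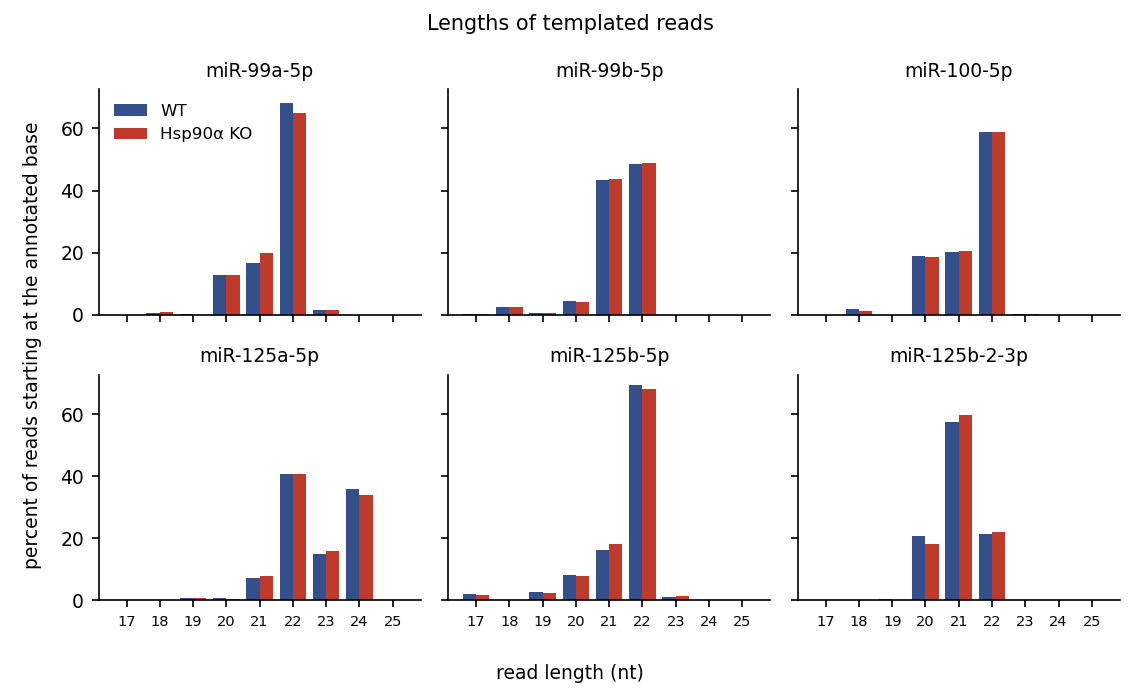
Percent of templated reads at each length (nt), among reads that start at the annotated base of each mature RNA, in WT (blue) and Hsp90α KO (red). miR-99b-5p is split between 21 and 22 nt, miR-125a-5p peaks at 22 and again at 24 nt, and miR-99a-5p, miR-100-5p and miR-125b-5p peak at 22 nt.

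Only 4 member sequences of 30 nt or more were read, with 23 reads in WT and 12 in KO. The most frequent was a Mir99b read of 38 nt, with 17 reads in WT and 9 in KO, which ran from the first base of miR-99b-5p through the loop to the last base before miR-99b-3p. A single Mir99a read of 37 nt in WT had the same ends in its own hairpin. No read was antisense to a member.

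Reads that carried 1 to 3 bases not found in the hairpin after at least 18 templated bases were counted as tailed. Terminal nucleotidyltransferases can add such bases, but these counts cannot tell an added base from a changed last base. A base equal to the next one in the hairpin does not count as a tail. miR-99b-5p had the highest tailed share of the 5p RNAs, 19.9% (19.6 to 20.2) in WT and 20.4% (20.1 to 20.6) in KO, with a single A in 8.69% and 8.48%. A single U was found on 8.50% (8.30 to 8.70) of its reads in WT and 9.14% (8.96 to 9.32) in KO, intervals that did not overlap. Its relative miR-99a-5p had the lowest share, 2.88% (2.42 to 3.41) and 3.19% (2.73 to 3.72), and miR-100-5p was between them with 11.3% and 10.6%, mostly a single A. In miR-125b-5p, 15.8% and 15.5% of reads were tailed, with a single A in 7.12% and 6.45% and a single G in 5.14% and 5.34%. In miR-125a-5p, 11.3% and 11.8% were tailed, with a single U in 4.97% and 5.06% and a single G in 3.58% and 3.87%. Its single C, on 0.0811% (0.0525 to 0.1252) in WT and 0.168% (0.1255 to 0.224) in KO, was the only other single-base share with intervals apart. All other single-base shares of the RNAs compared had overlapping intervals.

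The 3p RNAs of the miR-125b loci carried mostly U. A single U was found on 31.1% (28.4 to 33.99) of miR-125b-2-3p reads in WT and 32.0% (29.2 to 35.0) in KO, and on 16.9% (14.3 to 19.9) and 16.5% (13.9 to 19.4) of miR-125b-1-3p reads. The miR-99b-3p reads, exact and tailed together, were tailed in 59.7% (53.1 to 66.0) of 221 reads in WT and 68.3% (61.9 to 74.0) of 224 in KO. Between the libraries, the intervals of the total tailed share overlapped for each of these RNAs but for miR-99b-5p their overlap was small, and the tailed shares of miR-99a-5p, miR-100-5p and miR-99b-5p differed from each other by more than any of them did between WT and KO.

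**Figure D5:**
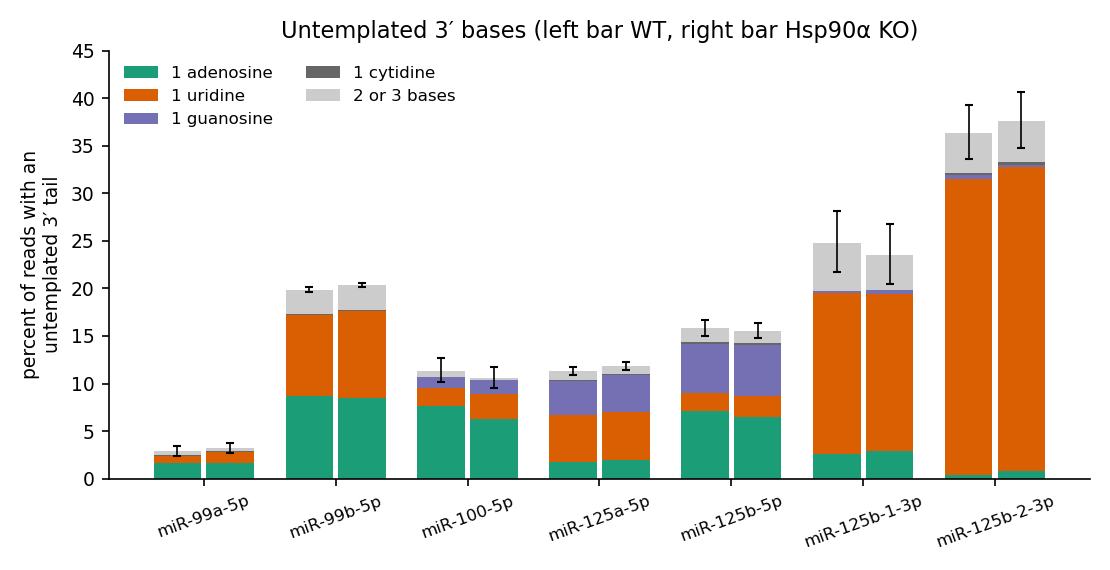
Percent of reads of the 5p RNAs and of both miR-125b 3p RNAs with an untemplated tail of 1 to 3 bases, split by the base added, with 95% counting intervals of the total; left bars are WT and right bars Hsp90α KO. Of the 7 RNAs drawn, miR-99a-5p has the lowest share in WT, 2.88%, and miR-125b-2-3p the highest, 36.4%; the intervals of the libraries overlap for each of these 7.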

How the data were processed

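The authors extracted total RNA with Isogen, built libraries with the TruSeq Small RNA kit, sequenced them on MiSeq as single ends, clipped the adaptor and deposited, per library, each distinct sequence of 11 to 48 nt with its raw read count. No depth scaling was applied to the deposited counts. The submitters' processing notes name mm9; the tables hold no coordinates, and those given are GENCODE M21 (GRCm38).

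A read was kept from 16 nt upward and assigned where its letters occurred unchanged in the sense sequence of one of 2202 hairpin transcripts, each read being counted once. RPM compares a hairpin between libraries; mature RNAs of like length were compared without length scaling, and differences in ligation between RNAs were not measured. KO/WT ratios have Clopper-Pearson intervals of the conditional binomial, shares Wilson intervals, and quotients of 2 hairpins intervals on the log scale, all at 95%. Hairpin matching and the KO/WT interval were tested on simulated data, and the other intervals were not. With 1 library per genotype no edgeR or DESeq2 test was possible, and only their scaling factors were used. The background was taken over reads specific to a single hairpin gene, a choice made after seeing that shared reads were counted many times otherwise. The text names the 6 members, a list of 6 related hairpins, 3 hairpins nearest in ratio to each family and marker lists. Which families and lists to describe, and the form of the tests, were chosen with earlier results of these data known, while reads were assigned to members by sequence alone. Alternatives covered the normalizing total, minimum length and reads, and shared reads. The scaling factors came from R 4.3.3, edgeR 4.0.16 and DESeq2 1.42.0 and the other steps from Python 3.11.15 with matplotlib 3.10.9, scipy 1.17.1, pandas 2.3.3 and numpy 2.4.6.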

Additional observations from a re-analysis of the deposited data

How the results depend on the processing

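No paired analysis was possible because each genotype has 1 library. Normalizing to all reads instead of hairpin-matching reads moved every log2 ratio up by 0.22, so the miR-99/100 family came to 1.41, the miR-125 family to 1.26 and Mir125b-2 from 0.930 to 1.08. The miR-99/100 ratio was 1.19 without Mir10b in the total, 1.24 with TMM and 1.23 with DESeq2 size factors, and the miR-125 ratio was 1.10 with TMM. Both DESeq2 size factors were 1, so the value of 1.23 is the ratio of unscaled reads. With each distinct sequence counted once the miR-125 family was at 1.13 and Mir125a went below 1, to 0.984. Alternatives that only rescale the libraries cannot change the order of the families. The counting of distinct sequences could, and gave intervals of 0.902 to 1.65 for miR-99/100 and 0.830 to 1.53 for miR-125, which overlap. With the shared reads counted in both miR-125b hairpins, an alternative chosen after seeing the data, Mir125b-2 was at 1.12.

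The count of hairpins past 1.5-fold, 4 of 205, became 0 of 89 with at least 1000 reads, 125 of 466 with no minimum and 49 at 1.2-fold; with reads counted in every hairpin they match, also chosen after seeing the data, it was 183 of 458, all lower in KO. No member was past 1.5-fold in any of these.

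With each distinct sequence counted once, the 5p share in WT and KO was 78.6% and 83.3% for Mir99a, 84.6% and 81.6% for Mir99b, 90.9% and 83.3% for Mir100, 77.8% and 76.7% for Mir125a, and 54.7% and 49.1% for the miR-125b loci. The Mir100 5p share in KO was 100% when sequences read once were left out. With reads of 18 nt or more, the annotated start took 94.0% and 94.1% of miR-99a-5p, 98.5% and 98.1% of miR-100-5p, and 98.3% and 98.4% of miR-99b-5p. With 20 templated bases required, 20.4% and 20.8% of miR-99b-5p reads were tailed. The remaining 41 of 60 alternative values of these shares lay within the counting interval.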

Other observations

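Substitutions inside the mature RNA, which the exact match leaves out, were counted against the annotated 22-nt miR-125b-5p. C11U was found in 79 reads in WT and 94 in KO, or 1.88% (1.51 to 2.33) and 1.93% (1.58 to 2.36), whereas the other substitutions at positions 1 to 19 reached at most 0.121% and 0.0629%. This sequence matches no annotated hairpin. On shared miR-125b-5p reads of all lengths that started 1 base downstream, the same base was substituted in 3 reads in WT and 4 in KO, or 0.236% (0.0802 to 0.691) and 0.277% (0.108 to 0.710), against 1.39% (1.12 to 1.72) and 1.40% (1.15 to 1.71) of those that started at the annotated base. Of the 81 and 96 substituted reads with the annotated start, 79 and 94 were of 22 nt. The 21-nt reads with that start had the substitution in 0 reads in WT and 1 in KO, beside 976 and 1270 with the annotated base. The lower share at the shifted start thus cannot be told apart from a difference between single forms. In miR-125a-5p, C11U was again the most frequent inner substitution, with 23 reads in each library, or 0.293% (0.196 to 0.440) and 0.286% (0.190 to 0.428). The separation of miR-99a-5p from miR-100-5p rests on position 16, where the 22-nt reads had U in 2926 and 3033 cases, A in 1300 and 1473, and C or G in 0.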
